A study of Mus musculus with 6 samples.

Results

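Solute carriers are the membrane proteins that move ions, sugars, amino acids, nucleotides, metals and organic acids across cell and organelle membranes, and the genes were taken here as every gene whose symbol in the array annotation begins with Slc and a family number. The rule gave 106 of 6788 named genes, spread over 41 families and 128 cDNA clones. Of these genes 86 had 1 clone, 18 had 2 and 2 had 3. The mitochondrial carrier family Slc25a held 15 of them and the other families 91.

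The arrays compared Neuro-2a cells, a mouse neuroblastoma line, transiently transfected with GFP tagged human TBP of CAG repeat length 59 (59Q) against the same line transfected with the GFP vector pEGFP-N3 (N3), both with FuGENE 6 and both harvested after 60 h. Both RNAs of a pair were hybridized to the same 2-colour cDNA array, and the dyes were exchanged between arrays: Cy5 marked the 59Q RNA of replicates 1, 3, 4 and 6, and Cy3 that of replicates 2 and 5. A deposited value is a Z-ratio, a score centred on 0 with an SD of 1 over the spots of an array, from which no fold change or level can be read. The direction of the score is not stated for any array, so values are given as deposited, with above 0 read as higher in 59Q than in N3, and again with the sign of replicates 2 and 5 turned, which reads every array as Cy5 over Cy3. On replicate 1 the 59Q RNA is not labelled as channel 2, as it is on the other arrays. A further reading, by channel order, therefore turns the sign of replicate 1 alone and is given in the closing section.

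The Slc25a proteins are built from repeated membrane-spanning modules. Most exchange metabolites across the inner mitochondrial membrane: ADP for ATP, phosphate, citrate, dicarboxylates, nucleotides and cofactors. The other families sit mostly in the plasma membrane, the Golgi, lysosomes and synaptic vesicles, and many of them draw on the sodium gradient of the Na,K-ATPase. Polyglutamine expanded TBP causes spinocerebellar ataxia type 17, and TBP itself is the general transcription factor that binds the TATA box.

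Of the 106 Slc genes, 92 had values on at least 4 arrays and were tested among 6463 genes, and 71 had values on all 6. The 14 genes on fewer arrays were Slc25a13 (the aspartate and glutamate carrier citrin), Slc25a37 (mitoferrin, an iron carrier) and Slc25a32 (a folate and FAD carrier), together with 11 of other families: Slc1a3, Slc4a3, Slc9a3r1, Slc9b1, Slc9b2, Slc12a4, Slc17a9, Slc35f2, Slc39a10, Slc40a1 and Slc44a4. Slc9a3r1, whose symbol fits the rule, encodes a PDZ scaffold and not a carrier, and had values of 0.83, -0.16 and -0.09 on replicates 1, 2 and 5. The 6 arrays lacked values for between 19 and 11234 spots, and replicate 3 lacked the most. Tbp, the gene of the transfected factor, had values of 2.92, 2.31, -0.0977, 0.176, 1.74 and 1.04 on replicates 1 to 6, with a mean of 1.35 ± 1.19 (SD, n = 6) and an adjusted p of 0.999. It was 2.31 and 1.74 on the arrays with 59Q in Cy3, and with the signs of those arrays turned its mean was -0.0015 (adjusted p 0.999). Of 12 neuroblast markers 5 (Gata2, Gata3, Th, Gap43 and Tubb3) could be tested, and a ratio of RNA pairs gives no level by which to check the cell line.

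No Slc gene passed the test between 59Q and N3 in the values as deposited. Of the 92 Slc genes tested, 0 were higher and 0 were lower at an adjusted p under 0.05 in limma, where the percentage called over all genes was 0 in both directions. At an unadjusted p under 0.05, 1 of 92 Slc genes passed in either direction (1.09%), beside 2.61% of all genes. That gene was Slc25a33, below 0, so 0 Slc genes passed above 0 (background 0.975%) and 1 below (background 1.64%). The mean was above 0 for 38 Slc genes (background 43.1%) and below 0 for 54 (background 56.9%). With the sign of replicates 2 and 5 turned, again 0 Slc genes were called higher, beside 0.263% of all genes, and 0 lower, beside 0.0155%. In that reading the mean was above 0 for 37 Slc genes (background 34.6%) and below 0 for 55 (background 65.4%). There 16 of 92 Slc genes (17.4%) had an unadjusted p under 0.05, against 19.8% of all genes. Of these 8 were above 0 (background 6.42%) and 8 below (background 13.4%), and the smallest adjusted p of an Slc gene was 0.0659, for Slc39a8.

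Slc25a33, a carrier that brings pyrimidine nucleotides into mitochondria, had values of -2.22, -0.02, -0.40, -0.86, -0.93 and -0.94 on replicates 1 to 6. It was the only Slc gene below 0 on all 6 arrays, as were 1.12% of all genes measured on 6 arrays, and no Slc gene was above 0 on all of them (background 0.467%). Its mean was -0.90 ± 0.74 (SD, n = 6), with an unadjusted p of 0.0101 and an adjusted p of 0.999. Replicate 1 lay lowest and replicate 2 almost at 0, and the other array with 59Q in Cy3, replicate 5, was at the level of replicates 4 and 6. On replicate 2 the spots of its only clone had -0.39 and 0.36, so the sign of Slc25a33 there rests on their average. Turning the sign of replicates 2 and 5 gave a mean of -0.58 ± 1.06. In the reading by channel order, which turns replicate 1, Slc25a33 would lie above 0 on that array and below 0 on the others. Slc25a36, the other pyrimidine nucleotide carrier of the family, had -0.56, 0.31, -0.98, 0.04 and -0.74 on replicates 1, 2, 4, 5 and 6. Its 3 Cy5 arrays (those with 59Q in Cy5) were below 0 and its 2 Cy3 arrays above 0, and its mean of -0.38 ± 0.54 (n = 5) was smaller than its SD.

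**Figure D1:**
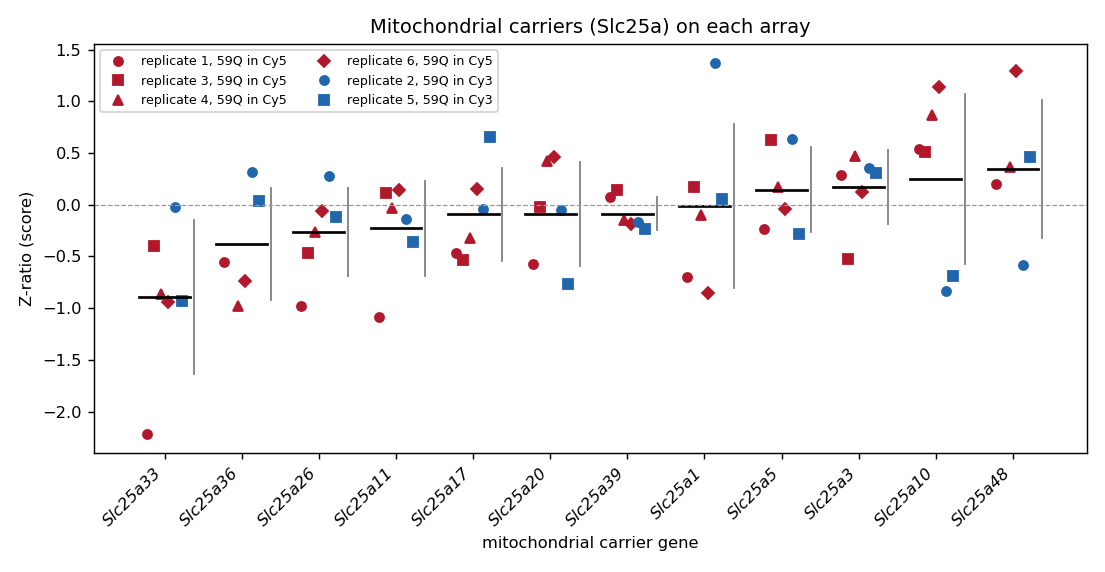
Z-ratio (score) of the 12 tested genes of the mitochondrial carrier family Slc25a on each array, ordered by mean. Red symbols are arrays with 59Q in Cy5, blue symbols arrays with 59Q in Cy3, black bars the mean and grey lines the mean ± SD. Slc25a33, as the average of its spots, is below 0 on all 6 arrays, and Slc25a10 is above 0 in all red symbols and below 0 in both blue ones.

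Slc25a10, the dicarboxylate carrier that exchanges malate and succinate for phosphate, followed the dye. It had 0.54, 0.51, 0.87 and 1.14 on replicates 1, 3, 4 and 6 with 59Q in Cy5, against -0.84 and -0.69 on replicates 2 and 5 with 59Q in Cy3. The 2 orientations did not overlap, a pattern of 1 of 10 Slc25a genes measured on all 6 arrays, beside 5.01% of all such genes. The orientations differed by 1.53, with a dye term in limma of adjusted p 0.216. The mean was 0.25 ± 0.82 as deposited and 0.76 ± 0.24 with the signs turned (SD, n = 6), with adjusted p values of 0.999 and 0.0916. In these data a dye response of a spot and a deposited direction that changes with the dye cannot be told apart.

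Slc25a1, the citrate carrier that feeds cytosolic acetyl-CoA, showed the widest orientation difference below 0 in the family. Its values were -0.70, 0.17, -0.10 and -0.85 with 59Q in Cy5 (replicates 1, 3, 4 and 6), against 1.37 and 0.05 with 59Q in Cy3 (replicates 2 and 5). The groups overlapped through replicate 3, and the mean over the 6 arrays was -0.01 ± 0.79. The remaining carriers of small metabolites and cofactors stayed within less than 1 SD of 0: Slc25a26, which imports S-adenosylmethionine, averaged -0.27 ± 0.43, and Slc25a11, the oxoglutarate and malate carrier, -0.23 ± 0.46. Slc25a17, a peroxisomal carrier of coenzyme A and other cofactors, averaged -0.09 ± 0.45, and Slc25a20, which exchanges carnitine for acylcarnitines, -0.09 ± 0.50. Slc25a39, which carries glutathione, had the narrowest spread of the family, between -0.23 and 0.15, with a mean of -0.09 ± 0.16 (SD, n = 6 for each of these 5). Slc25a48 averaged 0.35 ± 0.67 on 5 arrays. The 2 clones of Slc25a20 had opposite signs on replicates 1 to 3, at 0.30, -0.54 and 0.64 against -1.45, 0.44 and -0.68. They shared a sign on replicates 4, 5 and 6. The first clone was above 0 on each Cy5 array and below 0 on each Cy3 array, so the Slc25a20 mean averages clones that disagree.

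The abundant bioenergetic carriers were represented by Slc25a3, the phosphate carrier, and Slc25a5, an ADP/ATP translocase. Slc25a3 had 0.29, 0.35, -0.53, 0.47, 0.31 and 0.12 on replicates 1 to 6, above 0 on 5 of 6 arrays, with a mean of 0.17 ± 0.36 and an adjusted p of 0.999. Slc25a5 had -0.24, 0.64, 0.63, 0.17, -0.28 and -0.05, with a mean of 0.15 ± 0.41. Slc25a3 has 2 clones, which had -0.55 and 1.49 on replicate 4, and only the first has a value on replicate 3. The 2 clones of Slc25a5 differed too: one had between -0.59 and 0.00 on the 6 arrays and the other between -0.39 and 1.42. ADP/ATP translocases are near-identical copies with processed pseudogenes, so a cDNA spot of Slc25a5 may not measure this gene alone, which was not tested.

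Within the family 4 of 12 Slc25a means were above 0 and 8 below, against 34 above and 46 below among the 80 other Slc genes. The median of the means was -0.09 for Slc25a genes, -0.04 for other Slc genes and -0.04 for all genes. With the signs of replicates 2 and 5 turned, 5 Slc25a means were above 0 and 7 below, against 32 and 48 for other Slc genes, and the medians were -0.06 for Slc25a genes, -0.10 for other Slc genes and -0.16 for all genes, so that Slc25a was lowest as deposited and highest with the signs turned. The median SD over arrays was 0.48 for Slc25a genes, 0.65 for other Slc genes and 0.64 for all genes. The mitochondrial carriers thus lay close to the centre of the arrays, with a smaller median spread than the rest, a difference for which no test was made.

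The mean over Slc25a genes was -0.476 on replicate 1, against -0.0234 over other Slc genes. On replicates 3, 4 and 6, the other arrays with 59Q in Cy5, it was -0.0386, -0.0344 and 0.0408, against 0.193, 0.250 and 0.0376 over other Slc genes. With 59Q in Cy3 it was 0.0945 and -0.156 on replicates 2 and 5, against -0.0732 and -0.0571 over other Slc genes. Slc25a genes therefore averaged lower than other Slc genes on 4 of 6 arrays, and replicate 1 gave the widest gap. The difference averaged -0.149 ± 0.221 over the 6 arrays (SD, n = 6), less than its spread, and -0.172 ± 0.200 with the signs turned. With 59Q in Cy5 (4 arrays) it was -0.241 ± 0.188, and with 59Q in Cy3 (2 arrays) 0.0344 ± 0.189. With medians over genes in place of means the difference was -0.126 ± 0.256 over all 6 arrays, -0.0716 with 59Q in Cy5 and -0.235 with 59Q in Cy3, so the order of the orientations depended on the summary. By medians Slc25a genes were lower on 3 of 6 arrays. The median difference was 0.160 and 0.0279 on replicates 3 and 4, where Slc38a10 had 6.61 and 11.04, and -0.0826 on replicate 2. The Slc25a mean itself differed by -0.0962 between the orientations.

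**Figure D2:**
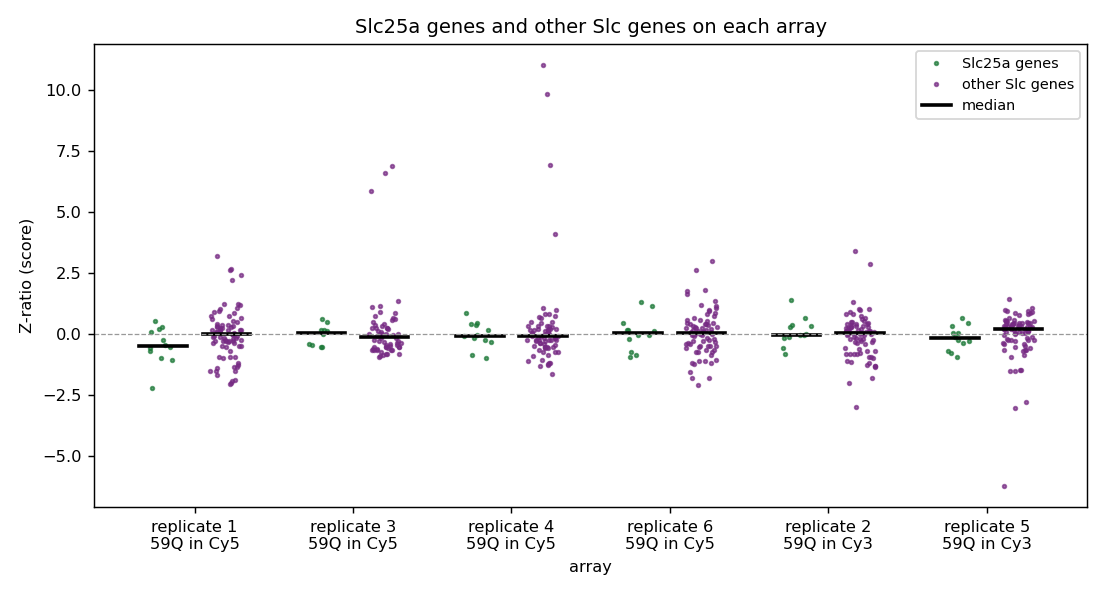
Z-ratio (score) of each Slc25a gene (green) and each other Slc gene (purple) on each array, grouped by the dye of the 59Q sample, with medians as black bars. The Slc25a median lies below the other Slc median on replicates 1, 2 and 5 and above it on replicates 3, 4 and 6, and single other Slc genes reach beyond 5 in size on replicates 3, 4 and 5.

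Of the carriers of the plasma membrane and other organelles, those with a mean above 0 and the smallest p included the neuronal glucose transporter Slc2a3. It had 1.04, 1.03, -0.16, 0.31, 0.66 and 0.10 on replicates 1 to 6, with a mean of 0.50 ± 0.50 and an unadjusted p of 0.0669. It was above 0 on 5 of 6 arrays and in both orientations. Slc19a3, a thiamine transporter, had 0.73, -0.23, 1.43 and 0.85 on replicates 1, 2, 5 and 6, and a mean of 0.70 ± 0.69 (n = 4). Slc16a6, a monocarboxylate transporter, averaged 0.45 ± 0.42 (n = 5), and Slc35e1, of the nucleotide sugar transporter family, 0.38 ± 0.57 (n = 6). Adjusted p was 0.999 for each of these 4 genes. With the signs of replicates 2 and 5 turned their means were -0.07 for Slc2a3, 0.09 for Slc19a3, -0.04 for Slc16a6 and 0.20 for Slc35e1. The 2 clones of Slc35e1 disagreed, with means of 0.65 (n = 6) and -0.35 (n = 4) as deposited, and 1.19 and -2.01 on replicate 6. Slc4a2, a chloride and bicarbonate exchanger, and Slc5a11, an inositol transporter, had means of 1.44 and 1.00 that rested on 1 array each, at 6.94 on replicate 4 and 5.86 on replicate 3. Each of these values came from a single spot whose duplicate had no value, and the other arrays lay between -1.24 and 0.91 for Slc4a2 and between -0.25 and 0.40 for Slc5a11.

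Below 0, Slc18a1, which loads monoamines into vesicles, had -0.48, 0.06, -0.91, -0.57, -0.64 and -0.33 on replicates 1 to 6. It was below 0 on 5 of 6 arrays, with a mean of -0.48 ± 0.33 and an unadjusted p of 0.0531. The zinc transporters Slc30a4 and Slc30a7, which fill vesicles and the Golgi with zinc, averaged -0.68 ± 0.89 (n = 6) and -0.82 ± 0.88 (n = 4). Slc2a4, the insulin-regulated glucose transporter, averaged -0.40 ± 0.31 (n = 5) and Slc35e2 -0.40 ± 0.57 (n = 6). Slc7a8, an amino acid exchanger, averaged -0.33 ± 0.42, and Slc38a7, a lysosomal glutamine exporter, -0.37 ± 0.63 (n = 6 each). None of these passed the adjusted test (adjusted p 0.999 for each). With the signs turned, Slc30a7 averaged 0.07 and Slc38a7 0.30, above 0, while Slc18a1 averaged -0.29, Slc30a4 -0.13, Slc2a4 -0.02, Slc35e2 -0.30 and Slc7a8 -0.08. Slc12a2, the sodium, potassium and chloride cotransporter that sets neuronal chloride, had -0.28, 0.16, 0.07, 0.48, -3.04 and -1.83, and its 2 clones differed on replicate 1, at -1.94 and 1.39. Its lowest arrays were replicates 5 and 6. On replicate 5 a spot had -9.15 beside -0.07 for its duplicate. On replicate 6 the same clone had -3.79 from a single spot, beside 0.13 for the other clone. The mean of Slc12a2 was -0.74 as deposited and 0.22 with the signs turned.

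By substrate, the metal transporters were the group with the largest share of genes whose orientation difference (Cy5 minus Cy3) was above 0. Of 14 tested metal transporters 4 had a mean above 0 and 10 below as deposited, with a median of -0.11, and 8 above and 6 below with the signs turned, with a median of 0.04. Their median difference between orientations was 0.23, while the median over all genes was -0.32. The difference was above 0 for 9 of 14, beside 2265 of all 6463 genes. The group was singled out for this share after the values were seen, and no test was made. The 11 amino acid transporters had 3 means above 0 and 8 below, with a median of -0.12, and a median orientation difference of -0.19. With the signs turned 4 were above 0 and 7 below. Of 10 ion exchangers and cotransporters 4 were above 0 and 6 below, of 13 nucleoside and nucleotide sugar transporters 5 and 8, and of 9 sugar transporters 4 and 5. With the signs turned these counts were 3 and 7, 6 and 7, and 2 and 7. The 9 carriers of monocarboxylates, peptides and organic ions had 6 means above 0 and 3 below as deposited, with a median of 0.19, and 4 above and 5 below with the signs turned, with a median of -0.04. The 9 carriers of lipids, choline, vitamins and other substrates likewise had 6 above and 3 below as deposited, and 4 above and 5 below with the signs turned. The 5 neurotransmitter and vesicle carriers had 2 above and 3 below as deposited, and 1 and 4 with the signs turned. No gene of any of these groups was called.

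Of the widely used nutrient carriers, Slc3a2, Slc38a2 and Slc20a1 had means near 0 as deposited and farther from 0 with the signs turned. Slc1a5, Slc11a2 and Slc29a1, given below, also moved away from 0, while Slc2a3 and Slc12a2, given above, moved toward it. Slc2a1, the general glucose transporter, averaged -0.14 ± 0.50, Slc3a2, the heavy chain of the amino acid exchangers, 0.03 ± 1.498, and Slc38a2, a neutral amino acid transporter raised by amino acid shortage, -0.01 ± 0.96. Slc16a1, the lactate transporter, averaged 0.30 ± 1.16, Slc6a6, the taurine transporter, 0.10 ± 0.41, and Slc20a1, a phosphate transporter, -0.06 ± 1.58 (SD, n = 6 for each). With the signs turned, Slc20a1 averaged -0.997 (unadjusted p 0.0247, adjusted p 0.200), Slc3a2 0.66, Slc38a2 -0.48 and Slc16a1 -0.31, while Slc2a1 averaged -0.17 and Slc6a6 0.16. Slc20a1 was widest on replicate 2, at 2.86 as deposited, from spots of 5.69 and 0.03. Slc3a2 had 2.62 and -2.02 on replicates 1 and 2 and lay between -0.55 and 0.10 on the others. The 3 clones of Slc6a6 did not share a sign on replicates 1 to 3: one had 2.01, -1.52 and 1.29, another -0.35, 1.39 and -0.83, and the last -0.04, 0.34 and -2.01. A gene mean of Slc6a6 therefore averages clones that disagree. So does that of Slc2a1, whose 2 clones had -1.39 and 1.27 on replicate 2 and means of -0.44 and 0.17 as deposited.

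Several Slc genes took opposite signs in the 2 dye orientations. Of the 71 Slc genes on all 6 arrays, 7 (9.86%) were above 0 on each Cy5 array and below 0 on each Cy3 array, named for the dye of the 59Q RNA, beside 5.01% of all genes. A further 5 (7.04%) had the reverse signs, beside 11.2% of all genes. The first pattern held 1 of 10 Slc25a genes and 6 of 61 other Slc genes, and the second 0 of 10 and 5 of 61. An orientation difference of at least 1.96 in size, the normal quantile at a 2-sided level of 0.05, was reached by 6 Slc genes (8.45%, background 4.22%), none of them an Slc25a gene. Of these 6, Slc20a1 (-2.202) and Slc11a2 (5.02) each included a spot far from its duplicate, 5.69 beside 0.03 for Slc20a1 on replicate 2 and -11.4 beside -1.14 for Slc11a2 on replicate 5. In the limma fit with a dye term, 0 Slc genes passed for dye after adjustment, as did 0% of all genes. At an unadjusted p under 0.05 for dye, 13 of 92 Slc genes passed (14.1%), 1 of them an Slc25a gene, beside 16.1% of all genes. Of these 7 were higher in the Cy5 orientation (background 5.91%) and 6 lower (background 10.2%). For the 59Q effect beside the dye term, 3 Slc genes had an unadjusted p under 0.05, beside 2.79% of all genes: Slc25a33 at -0.79, Slc2a3 at 0.58 and Slc38a7 at -0.53, none of which passed adjustment.

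**Figure D3:**
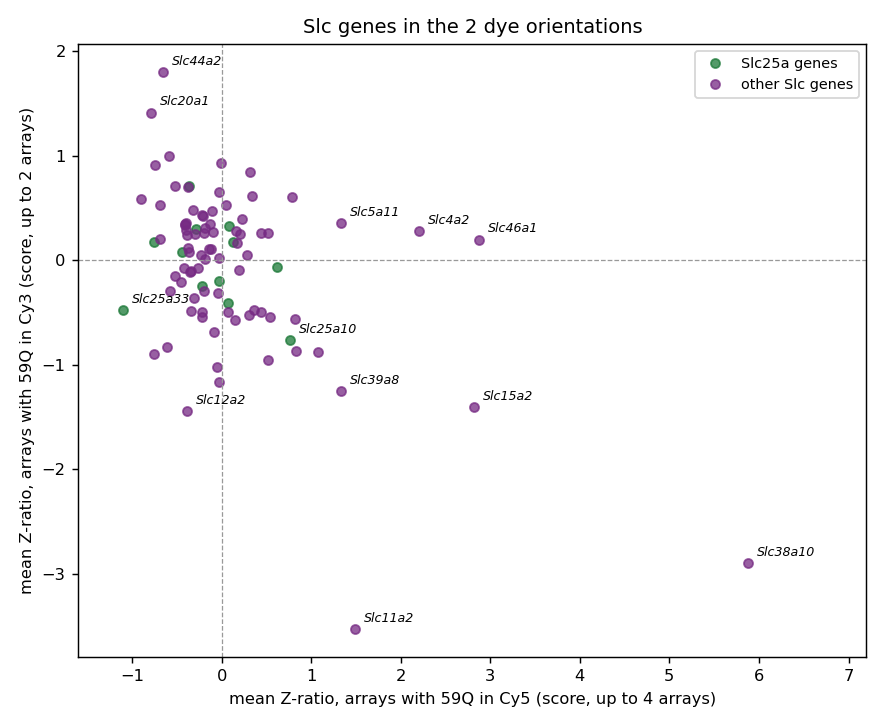
Mean Z-ratio (score) of each tested Slc gene over the arrays with 59Q in Cy5 (horizontal axis) and over those with 59Q in Cy3 (vertical axis), with Slc25a genes in green and other Slc genes in purple. Slc38a10 lies at 5.88 and -2.90, far from the Slc25a genes, of which Slc25a33 (-1.10 and -0.48) and Slc25a10 (0.76 and -0.76) are the outermost.

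Slc38a10, a member of the sodium-coupled neutral amino acid transporter family, had the widest orientation difference of the Slc genes on 6 arrays and the third widest of the 4926 genes on 6 arrays. Its values were 3.21, 6.61, 11.04 and 2.64 on replicates 1, 3, 4 and 6 with 59Q in Cy5, against -2.99 and -2.80 on replicates 2 and 5 with 59Q in Cy3. Every array lay beyond 2.6 in size and the orientations did not overlap. The difference was 8.77 (dye term, adjusted p 0.171), the mean 2.95 ± 5.43 as deposited, and 4.88 ± 3.37 with the signs turned (SD, n = 6, adjusted p 0.0789). As deposited it was the 1 gene of the 92 tested Slc genes with a mean of at least 1.96, beside 0.232% of all genes, and 0 tested Slc genes had a mean as far below 0, beside 0.0309%. Slc12a4, untested on 3 arrays, had a mean of 3.52 that rested on 10.2 on replicate 5. Slc15a2, which takes up small peptides with protons, had 2.199, 6.91, 0.80 and 1.36 with 59Q in Cy5, against -1.33 and -1.48 with 59Q in Cy3. Of its 2 clones, the one with values on all arrays had -2.46 and -1.999 on replicates 2 and 5 and the other -0.20 and -0.96. Slc15a2 differed by 4.22 between orientations (adjusted p 0.261 for dye).

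The metal importers Slc11a2 and Slc39a8 and the copper transporter Slc31a1 had the same signs. Slc39a8, which imports zinc, manganese and iron, had 2.44, 1.17, 0.75 and 0.98 with 59Q in Cy5, against -0.97 and -1.53 with 59Q in Cy3. Its mean with the signs turned was 1.31 ± 0.61 (SD, n = 6, adjusted p 0.0659). Slc11a2, the proton-coupled iron importer, had 1.21, 0.67, 1.08 and 3.01 with 59Q in Cy5, against -0.80 and -6.25 with 59Q in Cy3. Slc31a1, the high-affinity copper importer, named here and below with Slc31a2 and Slc44a1 after their values were seen, had 0.85, 0.91, 0.71 and 0.81 with 59Q in Cy5, against -0.41 and -0.72 with 59Q in Cy3. Slc29a1, a nucleoside transporter, differed by 1.08 between orientations, with means of 0.54 and -0.54.

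The reverse signs were found in Slc31a2, a second copper transporter of low affinity, in the choline transporter-like genes Slc44a1 and Slc44a2, in the neutral amino acid exchanger Slc1a5 and in the potassium and chloride cotransporter Slc12a7. Slc31a2 had -1.26, -0.63, -1.18 and -0.50 with 59Q in Cy5, against 0.75 and 0.42 with 59Q in Cy3, opposite in sign to the gene mean of Slc31a1 on every array. The 2 Slc31a1 clones disagreed on replicate 2, at -1.68 and 0.85, and the second shared the sign of Slc31a2 there. Slc44a1 had -0.94, -0.63, -0.54 and -0.64 with 59Q in Cy5, against 0.63 and 0.43 with 59Q in Cy3. Slc44a2 had -1.53, -0.01, -0.23 and -0.85 with 59Q in Cy5, against 3.39 and 0.22 with 59Q in Cy3, so replicate 2 set its difference of -2.46. Slc1a5 differed by -1.23 between orientations and Slc12a7 by -0.63. Members of 1 family thus took both signs, and adjusted p for dye lay above 0.05 for each.

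**Figure D4:**
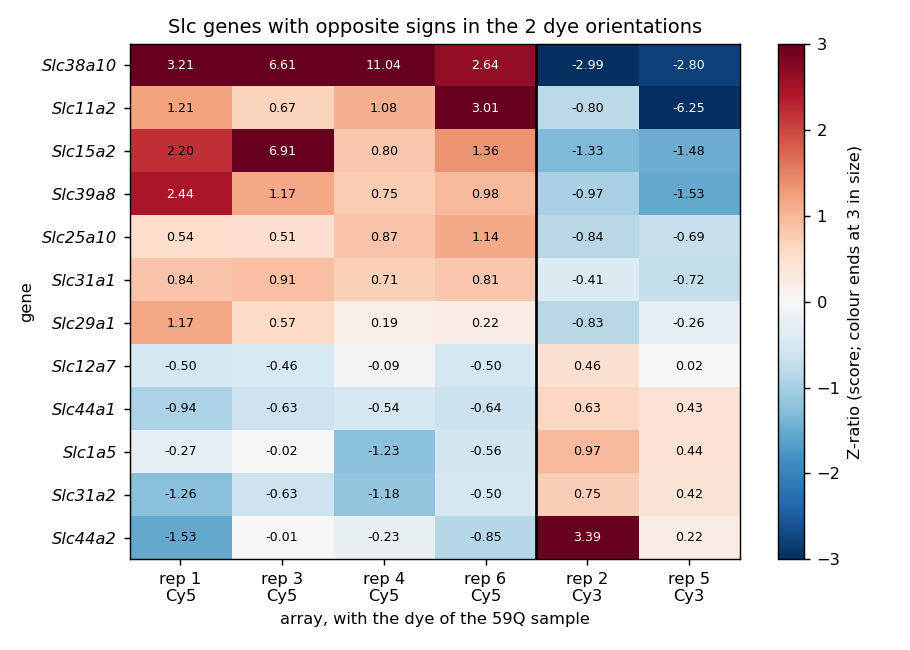
Z-ratio (score, printed in each cell, colour ending at 3 in size) of the 12 Slc genes whose sign on each Cy5 array (59Q in Cy5, left of the line) was opposite to that on each Cy3 array (right). Slc38a10, Slc11a2 and Slc15a2 at the top differ most (8.77, 5.02 and 4.22), and Slc44a2 at the bottom has 3.39 on replicate 2.

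Tested as single clones with the signs turned, an alternative added after the data were seen, 2 of 111 Slc clones (1.8%) were called higher, beside 1.89% of 14418 clones, and 0 lower, beside 0.0486%. They were the clones of Slc39a8 (adjusted p 0.0403) and Slc38a10 (adjusted p 0.0434), and the nearest outside were clones of Slc31a1 (adjusted p 0.0534) and Slc15a2 (adjusted p 0.0548). As deposited, 0 Slc clones were called, beside 0% of all clones. Across the 71 Slc genes on 6 arrays, arrays of the same orientation correlated with a median Pearson r of 0.41 (7 pairs, between 0.19 and 0.53), and arrays of opposite orientation with a median of -0.36 (8 pairs, between -0.64 and -0.31). Over all genes on 6 arrays the medians were 0.17 and -0.27. The genes of an array share its hybridization and its dyes, and Slc38a10 weighs in these values, with median Spearman rho of 0.32 and -0.28 over the Slc genes.

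Large values were checked against the duplicate spot of the same clone. Beyond 5 in size lay 14 Slc spots in 10 genes, and the duplicate was also beyond 5 for 6 of them, within 5 for 3 and missing for 5. Slc38a10 had 6.60 and 6.61 in its spot pair on replicate 3 and 11.2 and 10.9 on replicate 4, and Slc15a2 had 6.91 in both on replicate 3. In these genes the 2 spots were alike. In Slc11a2 on replicate 5 they were not, at -11.4 and -1.14, nor in Slc12a2 on replicate 5, at -9.15 and -0.07, nor in Slc20a1 on replicate 2, at 5.69 and 0.03. The unpaired spots were those of Slc12a4, Slc45a3, Slc46a1, Slc4a2 and Slc5a11, and Slc46a1, the proton-coupled folate transporter, had a mean of 1.80 that rested on 9.88 on replicate 4.

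**Figure D5:**
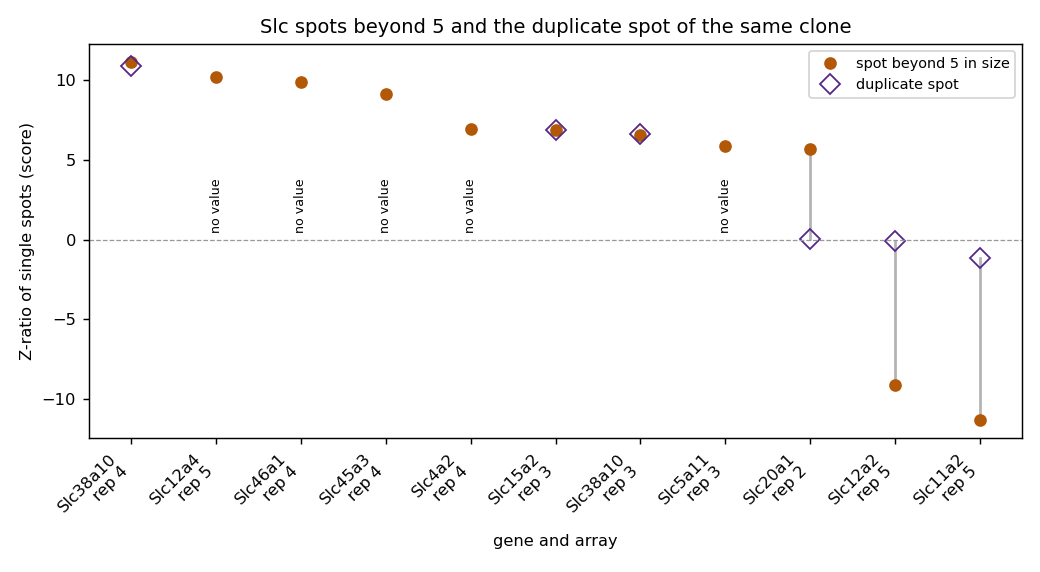
Z-ratio (score) of single Slc spots beyond 5 in size (filled circles) and of the duplicate spot of the same clone (open diamonds), by gene and array. The pairs of Slc38a10 (11.2 and 10.9 on replicate 4) and Slc15a2 coincide, those of Slc11a2, Slc12a2 and Slc20a1 lie apart, and 5 spots have no duplicate value.

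Because TBP binds the TATA box, the start regions of the Slc genes were read from RefSeq promoters on build GRCm38.p6, in which 78 of the 106 genes had an entry, with 100 promoters. The motif TATAAA, searched on both strands within 250 bases before the start, was present in 0 of 12 Slc25a promoters and in 6 of 88 other Slc promoters (6.82%), those of Slc1a3, Slc26a10, Slc30a3, Slc35a1, Slc38a4 and Slc45a3, beside 12.4% of 32851 promoters in all. Starting between 40 and 20 bases before the start on the gene strand it was in 0 of 100 Slc promoters, beside 1.99% of all. A match or its absence in this window says only whether these letters are there. Shown are the 100 bases before the start of the mitochondrial carrier that was below 0 on every array, of the one that followed the dye, and of the 2 Slc genes with the largest values in both duplicate spots. They lie at chr4:149774268-149774367 (minus strand, Slc25a33), chr11:120491737-120491836 (plus strand, Slc25a10), chr11:120151352-120151451 (minus strand, Slc38a10) and chr16:36784963-36785062 (minus strand, Slc15a2), written 5′ to 3′ on the gene strand, with capitals for the stretch in which a motif starting 40 to 20 bases before the start would lie.
Slc25a33: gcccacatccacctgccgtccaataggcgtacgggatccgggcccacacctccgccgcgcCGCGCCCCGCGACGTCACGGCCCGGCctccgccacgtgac
Slc25a10: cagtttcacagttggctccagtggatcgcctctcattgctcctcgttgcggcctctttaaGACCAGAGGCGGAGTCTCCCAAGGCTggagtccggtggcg
Slc38a10: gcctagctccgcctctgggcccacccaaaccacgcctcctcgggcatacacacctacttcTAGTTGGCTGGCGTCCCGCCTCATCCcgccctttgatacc
Slc15a2: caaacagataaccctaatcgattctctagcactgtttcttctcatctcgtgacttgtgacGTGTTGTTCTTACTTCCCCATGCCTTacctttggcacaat
The capitals hold no TATAAA in any of the 4, as in the other Slc promoters.

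Genes that work with the carriers were taken from lists of their own. Of the machinery that imports carriers into mitochondria, 9 of 15 genes were tested, with 2 means above 0, 7 below and a median of -0.15 as deposited, against a median of -0.04 over all genes, and 3 above and 6 below with the signs turned. Of these 0 were called in either reading. Timm8b, a small chaperone of the intermembrane space, had -2.10, -0.09, -0.29, -0.83, -0.50 and -0.25 on replicates 1 to 6, below 0 on all, with a mean of -0.68 ± 0.74 (unadjusted p 0.0387, adjusted p 0.999). As with Slc25a33, replicate 1 was its lowest array and replicate 2 its nearest to 0. Timm22, the channel that inserts carriers into the inner membrane, averaged -0.42 ± 0.67, and Tomm20, a receptor of the outer membrane, -0.23 ± 0.37 (SD, n = 6 each).

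Among outer membrane channels and the pyruvate carrier, 5 of 7 genes were tested, with 3 means above 0 and 2 below as deposited (median 0.03) and 1 above and 4 below with the signs turned (median -0.49), and 0 were called in either reading. Vdac1, the main metabolite channel of the outer membrane, had 0.92, 0.41, 0.23 and 0.68 with 59Q in Cy5, against -0.34 and -0.21 with 59Q in Cy3, the same signs as Slc25a10. Its mean was 0.28 ± 0.49 as deposited and 0.47 with the signs turned, with adjusted p values of 0.999 and 0.207. Mpc1, a subunit of the pyruvate carrier, had the reverse signs, with means of -0.65 and 0.68. The rest of this list also had means of the reverse signs to Vdac1, with 59Q in Cy5 and in Cy3. They were -0.55 and 0.35 for Vdac2, -0.01 and 0.12 for Vdac3, and -0.38 and 1.13 for Tspo. Of the sodium pump and the chaperones of carriers, 4 of 9 genes were tested, with 4 means above 0 as deposited, 2 above and 2 below with the signs turned, and 0 called in either reading. Bsg, which escorts the lactate transporter to the membrane, had 2.46, 1.76, 0.79 and 0.93 with 59Q in Cy5, against -1.47 and -0.74 with 59Q in Cy3, while Slc16a1, its partner, had means of -0.01 and 0.93. Atp1b1, a beta subunit of the pump, averaged 1.03 ± 1.61 and took the signs of Bsg. The rest of this list had means of the reverse signs. Emb had -0.28 with 59Q in Cy5 and 1.00 with 59Q in Cy3, and Atp1b3 had -0.38 and 1.08. Of 12 genes of the amino acid response, which raises several amino acid carriers, 8 were tested, with 2 means above 0 and 6 below as deposited, 4 above and 4 below with the signs turned, and 0 called in either reading. Trib3, Psat1 and Aars averaged -0.44 ± 1.20, 0.26 ± 0.76 and -0.29 ± 0.97 (SD, n = 6 each).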

How the data were processed

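The data were Z-ratios of 6 two-colour mouse cDNA arrays per spot, each with 59Q and N3 transfected Neuro-2a RNA. The authors labelled total RNA by tyramide signal amplification, scanned the slides, extracted signals with GenePix Pro and transformed them by the Z score method. Versions, background correction and spot filters were not given in the sources used here. Deposited values are a score per spot, with no intensities, log base or direction used here, and every sample column was mapped (0 left over).

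Neighbouring spots with the same accession were averaged to 15600 clones and clones to genes. The correlation between duplicate spots lay between 0.73 and 0.889. Spot symbols came from the platform annotation, updated by Entrez ID (18172 spots) from a table of GRCm38.p6, and 4 Slc clones with several symbols were left out. The test, limma 3.58.1 under R 4.3.3, took genes with values on 4 arrays or more (intercept only, eBayes, Benjamini-Hochberg over 6463 genes), with Python 3.11.15 and pandas 2.3.3 for tables, and the script was tested on simulated data. All 6 arrays were taken as replicates; the series text mentions 4 biological replicates and flip-dye pairs, which the labels do not identify, so p-values measure the spread between arrays, which may be technical, and the number of arrays limits the precision.

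The members and lists were chosen with earlier results of these data known. The genes named were every tested Slc25a gene; the 8 other Slc genes with the smallest p on each side of 0; the 8 with the largest orientation difference; a set of housekeeping carriers; and up to 3 per context list. Alternatives changed the direction, arrays used, dye term, centring, quantile normalization, clipping, missing values, clones against genes, the variance model and each replicate left out.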

Additional observations from a re-analysis of the deposited data

Results flagged for a closer look

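On 7 of 56 groups of arrays examined, 1 array stood apart from the others by Dixon's criterion, and chance alone flags about 1 in 20 groups. Slc25a3 had -0.53 on replicate 3, with the others between 0.12 and 0.47. Of its 2 clones only 1 had a value there, and that clone was also at -0.55 on replicate 4, where the other had 1.49. Slc4a2 had 6.94 on replicate 4 and Slc5a11 5.86 on replicate 3, both from a single spot without a duplicate value. Slc44a2 had 3.39 on replicate 2, with the others between -1.53 and 0.22. Among the import genes, Timm8b had -2.10 on replicate 1, Timm22 0.88 on replicate 2 and Tomm20 0.49 on replicate 3.

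For 12 named genes every array with 59Q in Cy5 had the opposite sign to both arrays with 59Q in Cy3. Over all genes on 6 arrays 5.01% were above 0 in Cy5 and below in Cy3, and 11.2% the reverse, and the named genes include those picked for the largest orientation differences. The difference, 59Q in Cy5 minus 59Q in Cy3, was 1.53 for Slc25a10, 8.77 for Slc38a10, 5.02 for Slc11a2, 4.22 for Slc15a2, 2.59 for Slc39a8 and 1.08 for Slc29a1. It was -2.46 for Slc44a2 and -1.23 for Slc1a5. Of the context genes it was 0.84 for Vdac1, 2.07 for Atp1b1, 2.59 for Bsg and -1.33 for Mpc1. The limma dye term passed adjustment for none of the 12, with adjusted p between 0.169 (Slc39a8) and 0.339 (Vdac1). Tbp, the gene of the transfected factor, averaged 1.35 as deposited and -0.0015 with the signs of replicates 2 and 5 turned. For the 12 genes, dye and deposited direction cannot be told apart.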

How the results depend on the processing

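The count of Slc genes called was 0 as deposited and 0 under every alternative tried on genes, with 0 to 0 when each replicate was left out, and it was 2 with single clones and the sign of replicates 2 and 5 turned, chosen after seeing the data. The Slc25a mean minus the other Slc mean was -0.149, and between -0.206 (without replicate 2) and -0.0882 (without replicate 1) with each replicate left out. In the reading by channel order, with the sign of replicate 1 turned, it was 0.00137, so the difference was absent there. Replicate 1 thus moved it by more than any other array. The Slc25a mean with 59Q in Cy5 minus 59Q in Cy3 was -0.0962, between -0.222 and 0.0291 with each replicate left out, 0.0623 with arrays centred and 0.0146 after quantile normalization, so its sign was not settled. Of 41 tested named Slc genes, 11 changed the sign of their mean with replicates 2 and 5 turned, 14 with replicate 1 turned, 9 with a dye term and 8 without replicate 1. No paired analysis was possible because each array already holds 1 pair of samples and flip-dye pairs are not identified. Signal over background could not be assessed from the scores.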
